A study of Mus musculus with 9 samples.

Results

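The genes described here are 10 genes that serve as markers of macrophages and, in part, of all myeloid cells, namely Lyz2, Mrc1, Chil3, Adgre1, Ms4a7, Fcer1g, Gpnmb, Cd68, Tyrobp and Spi1. They were taken by symbol from a table of 20778 genes, and all 10 were present. Macrophages are phagocytes that arise from blood monocytes or from cells settled in a tissue before birth, and in glioblastoma they enter the tumour and mix with the resident microglia. The transcription factor PU.1, encoded by Spi1, sets up the myeloid programme, and the adaptors encoded by Tyrobp and Fcer1g pass on signals from many phagocyte receptors. Most of these genes are also on in microglia, so the name infiltrating macrophage fits Mrc1, Chil3 and Ms4a7 better than Tyrobp, Fcer1g, Cd68, Spi1 or Adgre1.

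The study set 2 culture models beside the tumour, with 3 libraries in each of the 3 groups, all labelled as C57BL/6. GL261 is a mouse glioma line, here carrying mCherry. For the tumour group, 50000 GL261 cells were placed in the striatum of immunocompetent male mice aged 7 weeks, the brains were taken on day 14 (5 mice are named), and the libraries are titled as whole tumor cells. For the 2D culture and the 3D bioink, GL261 was seeded at 1000000 cells per ml with astrocytes, microglia, pericytes and endothelial cells from male mice aged 6 to 10 weeks. The stated ratio was 1:1:2:0.1:0.1, without naming which number belongs to which cell. The microglia were the cells held by CD11b beads, and CD11b (Itgam) is carried by macrophages and monocytes as well. The 2D cells grew on a dish and the 3D cells in fibrin, and the bioink alone was digested before RNA extraction, in collagenase II (600 U per ml, 3 h). Macrophages are not among the cell types named for the cultures. Whether the 3 libraries of a group came from separate mice or cultures is not stated, and the pooled libraries were loaded in triplicate, so every p-value rests on a spread among libraries that may be technical in part or in whole.

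Values are normalized counts as deposited, rounded to whole numbers, and their depth is unknown. They summed to 15572800 to 15711632 per 2D library, 13548461 to 13683978 per bioink library and 16320090 to 16388074 per tumour library. Bioink replicate 1 stood apart from the others, with an array weight of 0.236 against 0.688 to 4.96. Results of the 10 macrophage genes that change without it are given with that value, and those of list genes only in part. Differences are on the log2(value + 1) scale with the adjusted p of limma, a linear model fitted to all 13773 genes with a mean of at least 10. A gene is called at an adjusted p under 0.05. All 10 macrophage genes passed this filter, but 7 of them had a mean under 10 in 2D culture and 5 in bioink, so these passed through the tumour libraries. List genes that are low in the cultures passed in the same way, so the counts of list genes called lower were partly set by the filter. Each value describes a mixture of cells, in which fewer cells of a type and less RNA per cell cannot be told apart.

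Against the tumours, 9 of the 10 genes were far lower in both cultures, and Gpnmb was lower in 2D culture but slightly higher in bioink. In 2D culture all 10 were called lower, where 27.0% of all genes tested were, 27.3% were called higher and 54.3% were called in either direction. In bioink 9 were called lower, where 37.3% of all genes were, and 1 was called higher, where 27.1% were (64.4% in either direction). The median log2 difference of the 10 was -7.29 in 2D culture and -5.99 in bioink, or -6.18 and -5.12 without genes at 0 in a culture group, against 0.01 and -0.11 for all genes. By values alone, all 10 lay below every tumour library in 2D culture (31.7% of all genes did, 32.2% lay above and 63.9% did either). In bioink 9 lay below (38.9% of all genes did) and Gpnmb lay above (28.7% did, and 67.6% did either). The 2 cultures share the tumour libraries as their reference, so their values stand side by side and are not independent.

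**Figure D1:**
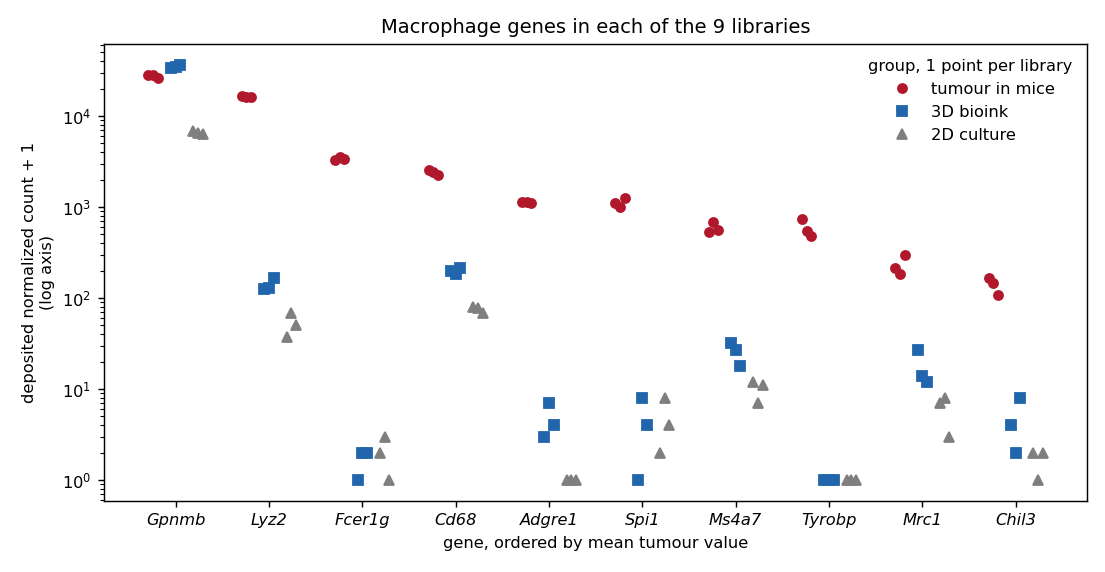
Deposited normalized count plus 1 (log axis) of the 10 macrophage genes in each of the 9 libraries, 1 point per library, with genes ordered by their mean tumour value. The tumour points lie above both cultures for every gene but Gpnmb, whose 3 bioink points (33516 to 36611) lie above the tumour points (26168 to 28200).

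Spi1 (chromosome 2, 91082390 to 91115756, plus strand, 5 exons; GRCm38, GENCODE) encodes PU.1, the master regulator of the myeloid lineage. It stood at 1104, 995 and 1249 in the tumours, 1, 7 and 3 in 2D culture and 0, 7 and 3 in the bioink. All 6 culture values were at 7 or less, and both cultures overlapped each other near 0. The log2 difference was -8.12 for 2D culture (SE 0.75, adjusted p = 9.81e-06) and -8.45 for bioink (SE 0.75, adjusted p = 6.44e-06). Leaving out 1 library moved these to between -8.62 and -7.62 and between -9.12 and -7.62.

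Tyrobp (chromosome 7, 30413760 to 30417585) encodes DAP12, an adaptor whose ITAM motif recruits the kinase Syk when a partner receptor such as TREM2 is engaged. Its values were 733, 550 and 480 in the tumours, and it was listed at 0 in all 6 culture libraries. limma called it lower in both cultures (adjusted p = 1.48e-07 for 2D culture and 1.59e-07 for bioink), and no fold is given against a group at 0. Fcer1g (chromosome 1, 171229572 to 171234365, minus strand), the Fc receptor gamma chain, is the other ITAM adaptor. It stood at 3314, 3542 and 3386 in the tumours, at 1, 2 and 0 in 2D culture and at 0, 1 and 1 in bioink. No culture library exceeded 2, and the log2 differences of -10.88 and -11.07 (SE 0.49 each, adjusted p = 6.21e-08 and 6.68e-08) depend on the 1 added before taking logs.

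Among surface proteins, Adgre1 (chromosome 17, 57358691 to 57483527) encodes F4/80, the classical antigen of mouse macrophages. It gave 1148, 1139 and 1095 in the tumours, was listed at 0 in all 3 libraries of 2D culture, and gave 2, 6 and 3 in bioink. The bioink values were above 0 in every library but stayed at 0.325% of the tumour mean (log2 difference -8.01, SE 0.42, adjusted p = 1.97e-07). Mrc1 (chromosome 2, 14229392 to 14332057, 30 exons), the mannose receptor CD206, is high in border macrophages and in macrophages treated with interleukin 4, and low in resting microglia. Its values were 212, 182 and 294 in the tumours, 6, 7 and 2 in 2D culture and 26, 13 and 11 in the bioink. The bioink kept 7.27% of the tumour mean and 2D culture 2.18%, with log2 differences of -3.77 (SE 0.49, adjusted p = 8.85e-05) and -5.35 (SE 0.49, adjusted p = 8.93e-06).

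Ms4a7 (chromosome 19, 11321039 to 11336146) encodes a membrane protein of the MS4A family that marks macrophages from the blood and the brain borders more than microglia. It stood at 535, 683 and 554 in the tumours, 11, 6 and 10 in 2D culture and 31, 26 and 17 in the bioink. The 3 groups did not overlap and were ordered tumour, bioink, 2D culture. The means were 4.18% of the tumour mean in bioink (log2 -4.56, SE 0.32, adjusted p = 1.40e-06) and 1.52% in 2D culture (log2 -5.92, SE 0.32, adjusted p = 2.42e-07).

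Of the secreted proteins, Lyz2 (chromosome 10, 117277331 to 117282321, 4 exons) encodes lysozyme M, an enzyme that cuts bacterial cell walls. Its values were 16530, 15992 and 16108 in the tumours, 36, 67 and 49 in 2D culture and 125, 129 and 163 in the bioink. Again no group overlapped another, and the culture values were 117-fold (bioink, log2 -6.87, SE 0.20, adjusted p = 3.95e-09) and 320-fold (2D, log2 -8.34, SE 0.20, adjusted p = 8.24e-10) below the tumour mean. Its near-identical neighbour Lyz1, with which reads may be shared, gave only 20, 24 and 33 in the tumours. Chil3 (chromosome 3, 106147554 to 106167564), the chitinase-like protein Ym1 of activated macrophages and some monocytes, gave 167, 146 and 108 in the tumours, 1, 0 and 1 in 2D culture and 3, 1 and 7 in the bioink. All culture values were under 10, with log2 differences of -6.45 (SE 0.62, adjusted p = 1.32e-05) and -5.12 (SE 0.62, adjusted p = 5.61e-05). Its close copy Chil4 did not exceed 1 in any library.

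Cd68 (chromosome 11, 69664213 to 69666153) encodes macrosialin, a glycoprotein of the lysosome membrane that phagocytes carry in large amounts. It was 2526, 2427 and 2253 in the tumours, 79, 76 and 67 in 2D culture and 197, 185 and 214 in the bioink. Cd68 was measurable in every culture library, with little spread, and its groups were well apart. It kept 8.27% of the tumour mean in bioink (log2 -3.59, SE 0.11, adjusted p = 7.16e-09) and 3.08% in 2D culture (log2 -5.00, SE 0.11, adjusted p = 6.14e-10).

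Gpnmb (chromosome 6, 49036546 to 49070929, plus strand, 11 exons) encodes a membrane glycoprotein of lysosomes and melanosomes. It is induced in lipid-laden and phagocytic macrophages, and is also made by melanocytes, osteoblasts and some glioma cells, so it is no pure macrophage marker. Its values were 28200, 28132 and 26168 in the tumours, 6775, 6456 and 6398 in 2D culture and 33516, 34808 and 36611 in the bioink. The bioink libraries were the highest and the 2D libraries the lowest, with no overlap. Gpnmb was 1.27-fold higher in bioink than in tumours (log2 0.35, SE 0.05, adjusted p = 0.000238). It was 4.2-fold lower in 2D culture (log2 -2.07, SE 0.05, adjusted p = 1.22e-09). Under the 3 other scalings of the libraries the rise in bioink was 0.59 to 0.75, while the median of all genes moved from -0.11 to between 0.04 and 0.14.

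**Figure D2:**
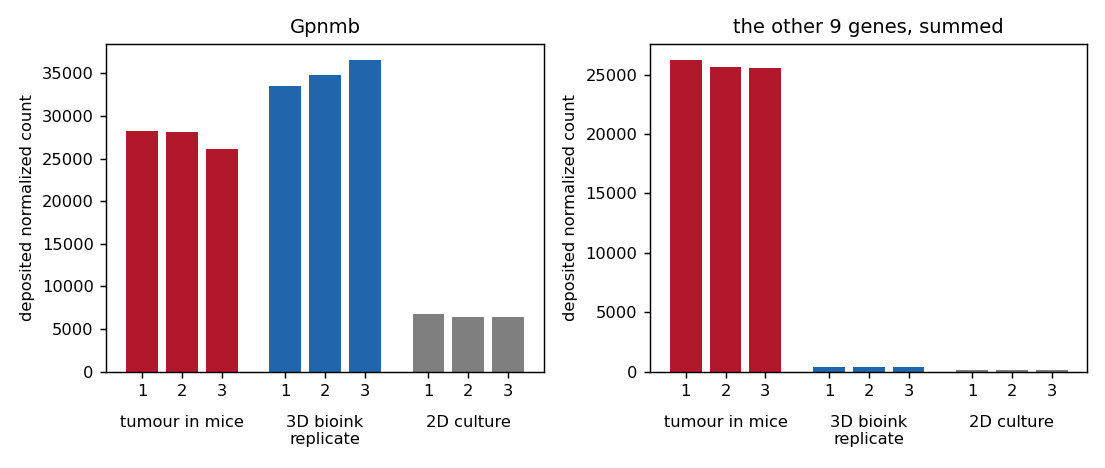
Deposited normalized count per library of Gpnmb (left) and of the other 9 macrophage genes summed (right), 1 bar per library on linear axes from 0. Gpnmb was highest in bioink, while the sum of the other 9 was 25527 to 26269 in tumours, 368 to 419 in bioink and 132 to 165 in 2D culture.

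Gpnmb thereby changed its standing among the 10 genes. It made up 50.6% to 52.3% of their summed value in the tumours, 97.5% to 98% in 2D culture and 98.9% to 99% in bioink. The ratio of Gpnmb to Cd68 within a library was 11.2 to 11.6 in tumours, 84.9 to 95.5 in 2D culture and 170 to 188 in bioink. Among all genes of a library, Gpnmb ranked 39th to 48th in tumours, 18th to 21st in bioink and 334th to 360th in 2D culture. Which cells of the mixture held this Gpnmb RNA was not tested.

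Levels of different genes are compared only per kilobase of the longest basic coding transcript. On that scale the tumour order was Lyz2 at 12318 ± 215, Gpnmb at 7430 ± 312, Fcer1g at 4999 ± 171, Cd68 at 1953 ± 112 and Tyrobp at 1042 ± 232 (normalized count per kb, SD, n = 3). Spi1 followed at 549 ± 62.6, then Ms4a7 at 375 ± 51.1 and Adgre1 at 348 ± 8.76, a pair that did not differ beyond its spread, then Chil3 at 91.2 ± 19.4 and Mrc1 at 42.7 ± 10.8. In bioink the order was Gpnmb at 9451 ± 420, Cd68 at 162 ± 11.8, Lyz2 at 106 ± 15.9 and Ms4a7 at 15.7 ± 4.5, with the other 6 genes at 3.1 or less. In 2D culture Gpnmb stood at 1768 ± 54.9, Cd68 at 60.2 ± 5.08 and Lyz2 at 38.5 ± 11.8, and the other 7 at 5.71 or less. The genes below Ms4a7 in bioink, Fcer1g among them at 0.976 ± 0.845, lay near 0 with overlapping spreads, and their order there is not resolved. Among the tumour libraries the coefficient of variation was 25.3% for Mrc1, 22.2% for Tyrobp and 21.3% for Chil3, and 1.75% for Lyz2 and 2.52% for Adgre1, against a median of 8.32% over genes with a mean of at least 100.

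Next, the cultures were compared with each other. Of the 10 genes, 6 were called higher in bioink than in 2D culture (27.0% of all genes were) and none was called lower (32.2% of all genes were, and 59.2% were called in either direction). By values alone, those 6 genes were higher in all 3 bioink libraries than in any 2D library (31.5% of all genes were, 35.6% were lower and 67.1% did not overlap either way), and the other 4 overlapped. The 6 were Gpnmb, 5.35-fold higher (log2 2.42, SE 0.05, adjusted p = 1.24e-09), Cd68, 2.68-fold (log2 1.41, SE 0.11, adjusted p = 3.48e-06), and Lyz2, 2.74-fold (log2 1.47, SE 0.20, adjusted p = 0.000125), with Ms4a7, Mrc1 and Adgre1. Ms4a7 was 2.74-fold higher (log2 1.36, SE 0.32, adjusted p = 0.00494). Mrc1 was 3.33-fold higher (log2 1.58, SE 0.49, adjusted p = 0.0185), and Adgre1 went from 0 to a mean of 3.67 (adjusted p = 0.00167).

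The 3 calls on the low genes depended on settings. After quantile normalization Mrc1 (log2 0.64, adjusted p = 0.322) and Ms4a7 (log2 0.48, adjusted p = 0.253) were not called. Mrc1 also lost its call without bioink replicate 1 (log2 1.23, adjusted p = 0.0597) and without 2D replicate 3 (log2 1.15, adjusted p = 0.0594). Adgre1 lost its call when 10 instead of 1 was added before taking logs (log2 0.44, adjusted p = 0.0827). Chil3 was not called (log2 1.33, 95% interval -0.06 to 2.73, adjusted p = 0.0916), but was called without bioink replicate 2 (log2 1.83, adjusted p = 0.0281) and with array weights (log2 2.12, adjusted p = 0.00401). Fcer1g (95% interval -1.30 to 0.91) and Spi1 (95% interval -2.02 to 1.35) were near 0 in both cultures, and Tyrobp was listed at 0 in both, so a difference between the cultures in these 3 was not detectable. The calls on Gpnmb, Cd68 and Lyz2 held in every alternative run.

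**Figure D3:**
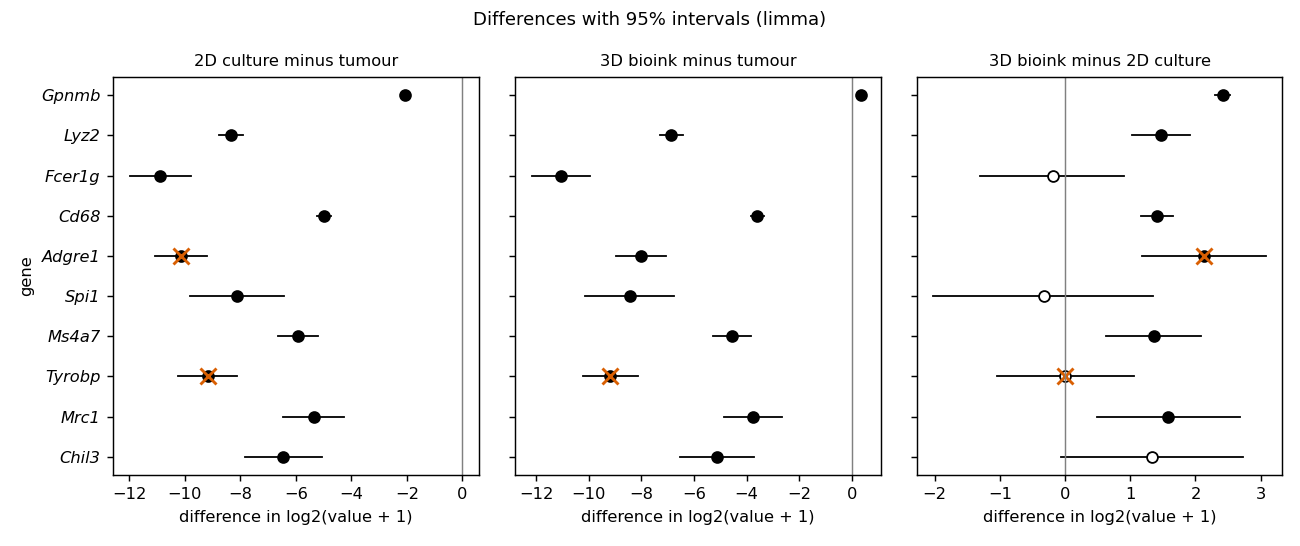
Difference in log2(value + 1) of each macrophage gene in the 3 comparisons, with its 95% interval from limma. Filled points were called at an adjusted p under 0.05, open points were not, and an orange cross marks a gene with no value above 0 in 1 of the compared groups, whose size depends on the added 1. In bioink minus tumour, Gpnmb is the 1 gene to the right of 0.

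RefSeq promoter sequences (GRCm38.p6) were matched for 7 of the 10 genes, and the 250 bases before the start were searched on both strands for GAGGAA, the core of the site bound by PU.1, and for CACGTG and CATGTG, the E-box and M-box letters that factors of the MITF and TFE family bind. The matches found do not overlap each other, and CACGTG reads the same on both strands. Sequences are shown for Mrc1, Cd68 and Lyz2, called lower with Spi1 in both cultures. Gpnmb, called lower in 2D culture but not in bioink, is shown too. Fcer1g, Chil3 and Ms4a7 were also called lower in both cultures, and their sequences, which held no match, are not shown. Each line gives 200 bases, from 250 to 51 before the start, 5′ to 3′ on the strand of the gene, with matches in capitals (read on the other strand, GAGGAA shows as TTCCTC and CATGTG as CACATG). Mrc1 lies at chr2:14229164-14229363 (plus strand), Cd68 at chr11:69666221-69666420 (minus), Lyz2 at chr10:117282323-117282522 (minus) and Gpnmb at chr6:49036268-49036467 (plus).
Mrc1: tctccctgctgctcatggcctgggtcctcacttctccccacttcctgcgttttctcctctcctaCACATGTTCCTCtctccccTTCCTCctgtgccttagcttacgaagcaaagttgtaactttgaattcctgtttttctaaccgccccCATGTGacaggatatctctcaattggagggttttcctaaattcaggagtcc
Cd68: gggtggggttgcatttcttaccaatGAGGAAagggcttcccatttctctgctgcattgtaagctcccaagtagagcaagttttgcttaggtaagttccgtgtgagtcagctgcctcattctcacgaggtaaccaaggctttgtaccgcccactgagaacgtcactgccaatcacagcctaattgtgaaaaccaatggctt
Lyz2: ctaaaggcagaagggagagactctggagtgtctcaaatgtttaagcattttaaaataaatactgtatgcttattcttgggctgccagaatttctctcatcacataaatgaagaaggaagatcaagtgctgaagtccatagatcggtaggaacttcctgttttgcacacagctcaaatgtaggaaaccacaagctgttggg
Gpnmb: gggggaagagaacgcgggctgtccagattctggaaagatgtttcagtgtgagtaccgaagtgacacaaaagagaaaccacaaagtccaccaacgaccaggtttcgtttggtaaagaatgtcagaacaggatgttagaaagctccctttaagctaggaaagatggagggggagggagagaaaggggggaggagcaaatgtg
GAGGAA was found before 2 of the 7 genes, Mrc1 (3 times, on the other strand, from -180 to -175, -167 to -162 and -35 to -30) and Cd68 (once, -225 to -220), and in 23.3% of 32851 RefSeq promoters of this length. CATGTG was found before Mrc1 (-186 to -181 on the other strand and -101 to -96), and 17.6% of all promoters held it or CACGTG. None of the 3 words was found in this window of Gpnmb, Lyz2, Fcer1g, Chil3 or Ms4a7. A match is a string of letters and no measured binding, and a window without one says nothing about the factor.

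The genes that work with the macrophage genes were read from lists, beginning with the partners of the adaptors. Of 14 receptors that signal through Tyrobp or Fcer1g, 12 were tested and all 12 were called lower in both cultures (median log2 -6.56 in 2D culture and -6.04 in bioink). Of the 14, 12 had a mean under 10 in 2D culture and 11 in bioink. Most of those tested thus passed the filter through the tumour libraries, and their count called lower was largely set by it. Siglech, also in the microglia list, had a weak call in bioink (log2 -1.42, adjusted p = 0.0462). That call was lost without bioink replicate 1 (adjusted p = 0.0822), among other alternatives. Fcgr3, an activating receptor for IgG, stood at 3029, 2955 and 2955 in the tumours and at 3 or less in each of the 6 culture libraries. Fcgr4, a related receptor, fell from 1239 ± 82.5 to 1 ± 1 in 2D culture and 8.67 ± 11.7 in bioink (n = 3). Trem2, the best known partner of Tyrobp in brain phagocytes, was 528, 416 and 438 in tumours but still 21, 19 and 28 in 2D culture and 21, 28 and 20 in the bioink, where Tyrobp was listed at 0. Between the cultures Pilrb1 and Clec4e alone of the 12 were called, both higher in bioink. Clec4e lost its call without bioink replicate 1 (adjusted p = 0.0578), bioink replicate 3 (0.051) or 2D replicate 1 (0.0638). The count was 4 of the 12 with array weights, 1 after quantile normalization and 0 with 10 added before taking logs, where Pilrb1 too lost its call (log2 0.67, adjusted p = 0.109).

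All 14 kinases, phosphatases and adaptors that act after the ITAM were called lower in both cultures (median log2 -6.01 and -5.72). Ptpn6, the phosphatase SHP-1, fell from 3722 ± 127 to 320 ± 16.6 in 2D culture and 166 ± 23.1 in bioink (n = 3). Pik3ap1, an adaptor to PI3 kinase, fell from 3330 ± 139 to 76.7 ± 16.7 and 75.7 ± 25 (n = 3). Between the cultures Lyn, Fgr and Lcp2 were higher in bioink and Ptpn6 was lower, while 7 of the 14 were called higher with array weights and 1 after quantile normalization. Fgr, listed at 0 in all 2D libraries, lost its call without any 1 library other than bioink replicate 3 (adjusted p of 0.0674 to 0.155).

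Of 11 transcription factors of the lineage other than Spi1, 10 were called lower in both cultures, and Mef2c was not called (median log2 -3.17 and -3.05). Irf8, a partner of PU.1 in monocytes and microglia, fell from 4521 ± 114 to 0.667 ± 0.577 in 2D culture and 13 ± 5.2 in bioink (n = 3). Cebpb, which many other cell types also express, fell from 4129 ± 708 to 547 ± 89.6 and 1744 ± 140 (n = 3). In bioink minus 2D culture 5 of the 11 were called higher and none lower (27.0% and 32.2% of all genes were).

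Genes shared by microglia, macrophages and other myeloid or white blood cells went the same way as the 9 macrophage genes. All 17 were called lower in both cultures, with a median log2 difference of -7.79 in 2D culture and -7.20 in bioink. Of the 17, 12 had a mean under 10 in 2D culture and 6 in bioink, so these passed the filter through the tumour libraries. Their summed value was 74489 to 74853 in tumours, 185 to 209 in 2D culture and 531 to 613 in bioink. Ctss, a lysosomal protease, fell from 34133 ± 133 to 4.67 ± 3.06 and 30.3 ± 14.6, and Itgb2, the integrin chain CD18, from 7414 ± 156 to 24.7 ± 1.15 and 48 ± 10.4 (n = 3 each, 2D culture and then bioink). Ptprc, which encodes the white blood cell antigen CD45, gave 1, 2 and 4 in 2D culture and 0, 6 and 6 in the bioink. In bioink minus 2D culture 11 of the 17 were called higher and none lower (27.0% and 32.2% of all genes were). Coro1a, Itgb2 and Hcls1 lost this call after quantile normalization (adjusted p = 0.857, 0.342 and 0.285).

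Markers that separate monocytes, border macrophages and microglia were read beside these. Of 13 monocyte genes tested, 12 were called lower in 2D culture, and 9 lower and 1 higher in bioink (median log2 -5.36 and -3.62). Ly6c2, the antigen of inflammatory monocytes, was listed at 0 in all 6 culture libraries and at 86, 133 and 109 in tumours. Tgfbi, a matrix protein of recruited macrophages and many other cells, fell from 15551 ± 385 to 294 ± 25.9 in 2D culture and 680 ± 174 in bioink (n = 3). Itga4 fell from 1946 ± 117 to 1272 ± 24.2 in 2D culture (n = 3). In bioink it stood at 1646 ± 85.8, called lower as deposited (log2 -0.24) and not called under the 3 other scalings. Ccr2, the receptor by which monocytes follow Ccl2, was 48, 43 and 51 in tumours, 16, 20 and 17 in 2D culture and 111, 31 and 40 in the bioink. It was not called in bioink (log2 0.13, adjusted p = 0.811), and its call in 2D culture (log2 -1.37, adjusted p = 0.026) was lost without any 1 of tumour replicates 1 and 3 and 2D replicates 1 and 3 (adjusted p of 0.06 to 0.0708). Gda (log2 -0.02, adjusted p = 0.975) and Emilin2 (log2 -3.60, adjusted p = 0.157) were not called in bioink either. Plac8 alone of the 13 was called lower in bioink than in 2D culture (log2 -1.53, adjusted p = 0.0093). Haptoglobin (Hp), an acute phase protein, was the 1 monocyte gene called higher in bioink than in tumours, at 13, 51 and 35 in tumours, 0, 2 and 0 in 2D culture and 89, 261 and 214 in the bioink.

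Of 10 border macrophage genes only 5 were tested, and 3 of these (Pf4, F13a1 and Stab1) were called lower in both cultures. Colec12, a scavenger receptor that other cells also make, was called higher in both, from 38, 35 and 0 in tumours to 88, 113 and 125 in 2D culture and 562, 648 and 690 in the bioink. Its call in 2D culture (log2 3.28, adjusted p = 0.0351) was lost without any 1 of the 2D libraries (adjusted p of 0.0665 to 0.0854). Cd163 and Lyve1, which define border macrophages, were at 10 or less in every library. Of 11 microglia genes, 9 were called lower in both cultures (median log2 -3.77 and -2.63). Olfml3, a secreted protein of microglia, fell from 2280 ± 112 to 246 ± 22 in 2D culture and 389 ± 45.5 in bioink (n = 3). Fcrls, restricted to microglia, was at 2 or less in each culture library. Microglia were among the seeded cells, and their genes summed to 905 to 1010 in 2D culture and 1516 to 1572 in bioink, against 12778 to 13488 in tumours. In bioink minus 2D culture 2 of the 11 were called higher, Olfml3 among them (log2 0.66, adjusted p = 0.000448), and 4 without bioink replicate 1.

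**Figure D4:**
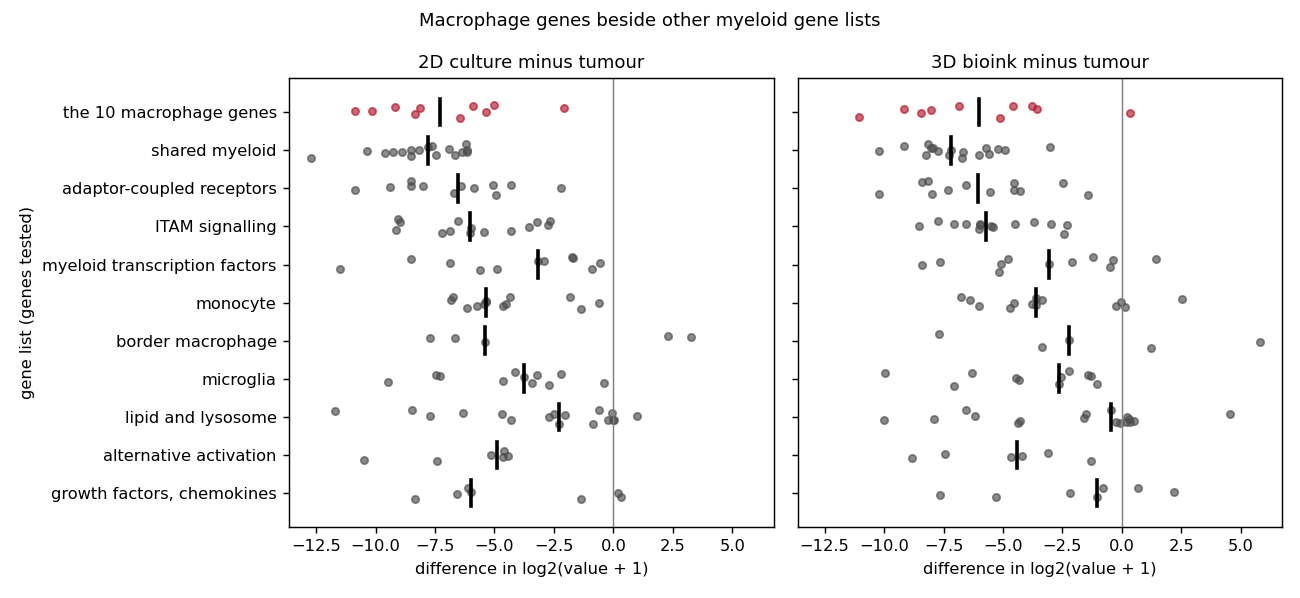
Difference in log2(value + 1) of each gene tested in the 10 macrophage genes (red) and in 10 other lists (grey), for 2D culture minus tumour (left) and bioink minus tumour (right), with a black bar at the median of each list. The median of the macrophage genes was -7.29 in 2D culture and -5.99 in bioink, and that of the lipid and lysosome genes was -2.30 in 2D culture and -0.47 in bioink.

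Gpnmb belongs to a set of lipid and lysosome genes of phagocytes, of which 17 others were tested. In 2D culture 13 were called lower and 1 higher, and in bioink 9 lower and 3 higher (median log2 -2.30 and -0.47). Apoe, the main lipid carrier of the brain, fell from 73084 ± 1224 to 204 ± 12.5 in 2D culture and 812 ± 297 in bioink (n = 3). The protease Ctsd fell less, from 23615 ± 1324 to 5744 ± 309 and 7726 ± 77.7 (n = 3). Spp1, which encodes osteopontin, was the 1 gene of this set called higher in both cultures, from 1098, 1074 and 1109 in tumours to 2127, 2220 and 2171 in 2D culture and 23703, 25751 and 26429 in the bioink. Ctsl and Cd9 were the other genes called higher in bioink, by 0.30 and 0.17 on the log2 scale (adjusted p = 0.00845 and 0.0357). The call on Cd9 was lost without any 1 library other than bioink replicate 2 (adjusted p of 0.0508 to 0.0874). Mitf, a transcription factor that binds M-box letters, stood at 287, 213 and 241 in tumours, 52, 40 and 57 in 2D culture and 210, 149 and 175 in the bioink. It was called lower in 2D culture (adjusted p = 1.00e-05) and was not called in bioink (log2 -0.47, adjusted p = 0.0765), but was called lower there without bioink replicate 1 (log2 -0.60, adjusted p = 0.0451).

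Mrc1 and Chil3 are also genes of alternative activation, the response of macrophages to interleukin 4. Of 6 other such genes tested, all 6 were called lower in 2D culture and 5 in bioink (median log2 -4.89 and -4.43). The full list held 11 genes, of which 9 had a mean under 10 in 2D culture and 8 in bioink. Arg1, arginase 1, fell from 8251 ± 101 to 5 ± 1.73 in 2D culture and 17.7 ± 4.16 in bioink, and Tgm2, a transglutaminase that other cells make too, from 20839 ± 435 to 592 ± 45.5 and 1147 ± 134 (n = 3 each). Il4ra, a chain of the interleukin 4 receptor, was 222, 314 and 191 in tumours and 69, 95 and 128 in bioink, and was not called there (log2 -1.32, adjusted p = 0.0586), but was called lower without 2D replicate 2 (adjusted p = 0.0202) or 3 (0.0133), through the shared estimate of the spread. In bioink minus 2D culture Arg1, Il4ra and Tgm2 were called higher, Arg1 not after quantile normalization (adjusted p = 0.0542). Retnla, a defining gene of this response, was at 5 or less in every library.

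Growth factors and chemokines that act on monocytes were read next. Of 7 tested, 5 were called lower in 2D culture, and 5 lower and 2 higher in bioink (median log2 -5.98 and -1.05). Csf1, the main survival factor of macrophages, fell from 3304 ± 57.6 to 1299 ± 53.6 in 2D culture and 1923 ± 52.8 in bioink (n = 3). Ccl2, which draws monocytes from the blood, was 1135, 1080 and 1083 in tumours, 22, 14 and 11 in 2D culture and 641, 527 and 446 in the bioink. Il34, the other ligand of the Csf1 receptor, and Cxcl12 were higher in bioink than in tumours, by 0.67 and 2.19 on the log2 scale (adjusted p = 0.00983 and 2.55e-05). The receptor itself, Csf1r, among the shared myeloid genes, stood at 21, 21 and 14 in 2D culture and 39, 59 and 47 in the bioink, against 7306, 7194 and 7026 in tumours.

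For each macrophage gene the nearest profiles were sought among 10181 other genes with a mean of at least 100, by the root mean square difference of centred log2 values over the 9 libraries. Lyz2 was nearest to Csf1r (0.33) and Slco2b1 (0.37), Cd68 to H2-K1 (0.11) and Unc93b1 (0.16), and Ms4a7 to Adam8 (0.25) and Il21r (0.29). Tyrobp was nearest to Csf2ra (0.15) and Cd300c2 (0.33), which were also listed at 0 in all 6 culture libraries. Mrc1 was nearest to Pirb (0.39) and Zmynd15 (0.46), Chil3 to Ccl5 (0.49) and Sirpa (0.53), and Adgre1 to Laptm5 (0.48) and Ccl3 (0.59). Spi1 was nearest to Fcgr1 (0.49) and P2ry6 (0.50), and Fcer1g to Bcl2a1b (0.64) and Il10ra (0.71). Gpnmb was nearest to Atg9b (0.14) and Klf6 (0.16), both of them lowest in 2D culture and highest in bioink. Klf6, a transcription factor of many cell types, stood at 3919, 4103 and 4024 in tumours, 1033, 1045 and 984 in 2D culture and 6761, 6171 and 6568 in the bioink.

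Markers of other white blood cells were read beside the macrophage genes, and their part in the results was not tested. Summed neutrophil markers were 803 to 952 in tumours, nearly all of it Csf3r (868, 743 and 737), which macrophages may also express, while S100a8, S100a9 and Ly6g were at 5 or less in every library. They summed to 25 to 47 in 2D culture and 89 to 141 in bioink. Csf3r was called lower in both cultures, the 1 of 2 tested genes of that list, and both were called lower in 2D culture without tumour replicate 2 or 2D replicate 2. T and NK cell markers summed to 592 to 727 in tumours, 80 to 97 in 2D culture and 199 to 257 in bioink, with 7 of 7 called lower in 2D culture and 4 in bioink. Most of both culture sums was Cd3d, at 70 ± 9.17 in 2D culture and 146 ± 33.3 in bioink against 111 ± 20.4 in tumours (n = 3). Gzmb and Cd2 were listed at 0 in all 6 culture libraries. In bioink Cd3d was not called as deposited (log2 0.38), but was called higher than tumours under the 3 other scalings (log2 0.62 to 0.64). Cd3d lost its call in 2D culture (log2 -0.65) in 10 alternatives. They included leaving out any 1 of the 2D libraries, tumour replicates 1 and 3 or bioink replicate 3 (adjusted p of 0.0581 to 0.136), the replicate block (0.0584), no filter (0.0576), equal totals (0.0652) and quantile normalization (0.542). In bioink Cd8a (log2 -1.12, adjusted p = 0.0324) lost its call without bioink replicate 1 (adjusted p = 0.0706), among other alternatives. Dendritic cell markers summed to 358 to 446, 186 to 223 and 294 to 360 in the same order. Of 6 tested, 4 were called lower in 2D culture, and 2 after quantile normalization. In bioink Ccr7 and Batf3 were called lower and Zbtb46 higher, and the count of lower calls was 1 without tumour replicate 1, tumour replicate 3 or bioink replicate 1. B cell markers did not exceed 59 in sum. Cd79a, the 1 tested, was called lower in 2D culture (log2 -3.29, adjusted p = 0.00115) and was not called in bioink (log2 0.67, adjusted p = 0.358).

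Genes listed as markers of the other seeded cells went in both directions, and some fell about as far as Cd68 in 2D culture. Which cells held their RNA was not tested. Summed astrocyte markers were 5394 to 5815 in tumours, 6098 to 6366 in 2D culture and 6519 to 6878 in bioink, though Aqp4 was at 15 or less in every library. Of 8 astrocyte genes, 3 were called lower and 3 higher in 2D culture, and 2 lower and 3 higher in bioink. Gja1, Aldoc and S100b, called higher in both cultures, made up most of the sum. Gfap was called lower in both, from 594 ± 36.9 to 166 ± 19.2 in 2D culture and 375 ± 17.8 in bioink (n = 3). Slc1a3 was too, from 548 ± 61.3 to 71 ± 12.2 and 222 ± 22.4 (n = 3). Slc1a2 was called lower in 2D culture alone (adjusted p = 0.0145), but not without 2D replicate 1 (0.0529). Summed endothelial markers were 5499 to 5859, 4820 to 5151 and 5414 to 7711 in the same order, and of 8 tested 4 were called lower and 1 higher in 2D culture, 2 lower and 2 higher in bioink. Cdh5 was called higher in both cultures (log2 1.94 in 2D culture and 1.97 in bioink, adjusted p = 2.23e-06 and 1.86e-06). Pecam1 made up most of the endothelial sum (3650 ± 216 in 2D culture and 4263 ± 193 in tumours, n = 3). In bioink it stood at 5407, 3162 and 3030, and was not called against tumours (log2 -0.19, adjusted p = 0.378). Without bioink replicate 1 it was called lower there (log2 -0.46, adjusted p = 0.000166) and in 2D culture (log2 -0.22, adjusted p = 0.00636). In bioink minus 2D culture it was then called lower as well (log2 -0.24, adjusted p = 0.00894). Cldn5, a tight junction protein, was 29.6-fold lower in 2D culture (log2 -4.73, adjusted p = 1.60e-05) and 7.13-fold lower in bioink (log2 -2.75, adjusted p = 0.000566). Pericyte markers summed to 4260 to 4647, 1031 to 1079 and 2829 to 3006, with 4 of 6 called lower and 2 higher in 2D culture and 2 lower and 4 higher in bioink. Anpep alone was 2888 ± 214 of the tumour sum (n = 3). Pdgfrb (log2 1.32 in 2D culture and 1.80 in bioink, adjusted p = 0.0038 and 0.000434) and Notch3 (log2 1.08 and 1.59, adjusted p = 0.0177 and 0.00175) were called higher in both. The call on Notch3 in 2D culture was lost without tumour replicate 2 or 3 or 2D replicate 2 (adjusted p of 0.0581 to 0.0684). Anpep, the aminopeptidase CD13, was 39.6-fold lower in 2D culture (log2 -5.29, adjusted p = 1.23e-09) and 8.01-fold lower in bioink (log2 -3.01, adjusted p = 6.76e-08), beside 32.5-fold and 12.1-fold for Cd68. Whether pericytes or other cells of the tumours held this Anpep RNA was not tested, so its fall is not read as one of pericytes. Vtn was listed at 0 in all 2D libraries. Fibroblast markers, of a cell the labels do not name, summed to 12789 to 13570, 8532 to 8708 and 16565 to 17976, with 1 of 5 called lower in each culture and 2 called higher in 2D culture and 4 in bioink.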

How the data were processed

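Bulk RNA was sequenced from 3 tumour, 3 2D culture and 3 bioink libraries. The authors deposited 1 table of scores, normalized counts per gene symbol that are whole numbers. DESeq2 1.24.0, DESeq, RSEM, kallisto and the build mm10 are named per the submitters' processing notes, without role or order, and whether reads were counted by strand is not given in the sources used here. The depth is unknown, so no counting interval is given.

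From these values, log2(value + 1) of genes averaging 10 or more across all 9 libraries was fitted with limma 3.58.1 (R 4.3.3, eBayes with trend, Benjamini-Hochberg adjustment over all genes tested, threshold 0.05), checked on simulated data. The replicate numbers did not pair the libraries. The 10 genes and the lists were chosen with earlier results of these data known, so no list was tested as a set. Besides the 10 genes, the text names the 2 tested genes of each list with the highest mean, genes called against their list, genes that make up a count of 3 or fewer, and the nearest profiles. Others, among them Trem2, Ptprc, Mitf, Il4ra, Fcrls, Ly6c2, Ccr2, Gda, Emilin2 and genes named as near 0, were chosen after their values were seen. Coordinates, exons and lengths are GENCODE's on GRCm38, the build also called mm10. Alternatives covered the added constant, filter, scaling, trend, weights, replicate block, the 6 libraries of a comparison and each library left out. Protein sequences were not used here, and 1 gene that the naming rule selects is not reported here.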

Additional observations from a re-analysis of the deposited data

Results flagged for a closer look

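Among the macrophage genes and the list genes named by rule, 5 were called in opposite directions in 2D culture and in bioink against the same tumour libraries, and their bioink minus 2D culture difference was called by limma too. Against tumours 54.3% of all genes tested were called in 2D culture and 64.4% in bioink, and the share called in opposite directions is not given here. Hp and Ctsl were named by rule because they were called against their list in bioink, so the count of 5 describes no wider set of genes. Gpnmb differed by 2.42 between the cultures on the log2 scale (adjusted p = 1.24e-09), with -2.07 in 2D culture and 0.35 in bioink against tumours. Haptoglobin (Hp) differed by 6.90 (adjusted p = 1.53e-05), with -4.36 and 2.53. Cspg4, the antigen used to sort pericytes as AN2, differed by 1.50 (adjusted p = 5.54e-08), with -0.91 and 0.59. Flt1, a VEGF receptor, differed by 1.31 (adjusted p = 1.69e-06), with -0.37 and 0.94. Ctsl, a lysosomal protease, differed by 0.53 (adjusted p = 0.000293), with -0.23 and 0.30, and its fall in 2D culture was not called under the 3 other scalings or without any 1 of tumour replicates 1 and 2 and 2D replicates 1 and 3 (adjusted p of 0.0631 to 0.122).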

How the results depend on the processing

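Every call of the 10 genes against tumours held in the 20 alternatives in which the gene was tested. The count called lower was 9 to 10 in 2D culture and 8 to 9 in bioink, the smaller count where a mean of at least 50 left Chil3 out. In bioink minus 2D culture 4 to 7 were called higher. The median difference of the 10 in 2D culture was -7.71 with 0.5 added, -5.43 with 10 added, -8.12 at a mean of at least 50 and -6.77 after quantile normalization. In bioink it was -5.00 with 10 added and -6.87 at a mean of at least 50, and in bioink minus 2D culture 0.62 with 10 added and 0.59 after quantile normalization. Leaving out 1 library at a time gave medians of -7.37 to -7.12, -6.30 to -5.72 and 1.28 to 1.49. Uncalled differences between the cultures changed sign for Fcer1g (0.17 without 2D replicate 2, 0.14 without bioink replicate 1) and Spi1 (0.17 and 0.50), within leave-one-out ranges of -0.63 to 0.17 and -1.0 to 0.50; the cause was not tested. Of 597 checks of single genes, 586 kept their direction and side of the threshold. Of 1080 checks of list counts, 1038 stayed within 1.5 times, and of 10686 checks of single genes of the lists or nearest profiles, the 10 genes included, 293 changed between called and not called and 0 changed to the opposite call. Deviations of libraries with the same replicate number correlated at -0.033 to 0.08, so the numbers do not pair them; with a replicate block, 7357, 8795 and 8039 genes were called in 2D culture, bioink and bioink minus 2D culture, against 7474, 8869 and 8148 without it, and the counts of the 10 genes stayed at 10, 9 lower with 1 higher, and 6. After equal totals 4886 genes were called higher and 3825 lower in bioink against tumours (3737 and 5132 as deposited), 4420 and 4222 after quantile normalization, and 4716 and 3854 at equal upper quartiles. In bioink minus 2D culture these were 4710 and 3437, 3547 and 4026, and 4813 and 3193 (3713 and 4435 as deposited), and in 2D culture 4150 and 3362, 4475 and 3070, and 3730 and 3554 (3761 and 3713). Values under 10 limit what can be said of Spi1, Tyrobp, Fcer1g, Chil3 and Adgre1 in the cultures.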
